A study of Mus musculus with 24 samples.

Results

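The cholesterol synthesis and transport genes are a list of 32 mouse genes, chosen by symbol from the 23240 genes of a hippocampal RNA-seq table. They were divided by role into 18 enzymes of sterol synthesis, 6 regulators and 8 genes of cholesterol transport and turnover. All 32 were present and passed the filter on low values (a normalized read count of at least 10 in at least 4 libraries), as did 15225 genes in all. The tissue was the hippocampus of male wild-type C57BL/6 mice, 4 to 8 months old, in a study of the role of microglia in electroconvulsive therapy (ECT), a treatment for depression in which a brief current provokes a seizure. A control diet group that was neither stressed nor treated gave 4 libraries. The other 20 libraries came from mice exposed to chronic unpredictable stress (CUS), a schedule of changing mild stressors, for 5 weeks before treatment began. On the control diet, 5 libraries followed sham treatment and 6 followed ECT. On a diet with PLX5562 (spelled as the labels spell it), an inhibitor of the CSF1 receptor on which microglia depend, 5 libraries followed sham treatment and 4 followed ECT. That diet was started 3 weeks before the stress, and ECT was given through ear clips under light isoflurane 3 times a week for 2.5 weeks. The nonstressed mice had no sham treatment, so stress and sham handling cannot be told apart in that comparison. Whether any libraries shared a mouse is not stated in the labels, and p-values therefore reflect variation among libraries.

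Cholesterol barely crosses the blood-brain barrier, and the brain makes its own. Acetyl-CoA is built up through mevalonate and squalene to lanosterol, and a series of demethylases, reductases and isomerases then turns lanosterol into cholesterol. SREBP transcription factors, encoded by Srebf1 and Srebf2, are held in the endoplasmic reticulum by Scap and Insig proteins when sterols are abundant, and enter the nucleus to switch on the synthesis genes when sterols are scarce. Oxysterols activate the liver X receptors (LXR), encoded by Nr1h2 and Nr1h3, which raise export through Abca1 and Abcg1. Oligodendrocytes use cholesterol for myelin, astrocytes supply it to neurons in lipoprotein particles, and neurons remove the surplus by hydroxylation through Cyp46a1.

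Promoters are shown for 5 genes on which the results turn: Hmgcs1 and Idi1, with the smallest p-values for the PLX diet in sham-treated mice, Tm7sf2, with the smallest for ECT on that diet, and Msmo1 and Insig1, which varied between libraries together with most of the enzymes. Each sequence is a RefSeq promoter of build GRCm38.p6, from 250 bases before to 50 bases after the RefSeq start, 5′ to 3′ on the gene's own strand. The RefSeq start lay downstream of the GENCODE M21 gene start by 49 bases for Insig1, 105 for Idi1, 214 for Msmo1 and 523 for Tm7sf2, whose whole window is therefore inside the GENCODE gene, while the 2 starts of Hmgcs1 were 28 bases apart. Capitals mark the sterol regulatory element TCACNCCAC and the CCAAT box (read as ATTGG where it lies on the other strand).
Hmgcs1 (chr13:119690101-119690400, plus strand): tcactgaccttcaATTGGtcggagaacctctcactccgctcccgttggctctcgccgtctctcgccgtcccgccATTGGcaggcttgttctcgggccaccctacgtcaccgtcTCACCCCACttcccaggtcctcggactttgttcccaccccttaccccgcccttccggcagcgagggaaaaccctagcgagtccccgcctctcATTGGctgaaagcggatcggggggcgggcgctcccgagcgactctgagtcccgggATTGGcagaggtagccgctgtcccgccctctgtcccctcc
Idi1 (chr13:8885356-8885655, plus strand): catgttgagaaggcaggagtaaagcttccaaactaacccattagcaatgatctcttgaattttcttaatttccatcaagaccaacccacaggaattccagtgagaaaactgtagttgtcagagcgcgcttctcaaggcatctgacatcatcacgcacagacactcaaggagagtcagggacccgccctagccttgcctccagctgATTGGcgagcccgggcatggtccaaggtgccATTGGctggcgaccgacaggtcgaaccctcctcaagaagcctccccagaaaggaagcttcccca
Msmo1 (chr8:64733529-64733828, minus strand): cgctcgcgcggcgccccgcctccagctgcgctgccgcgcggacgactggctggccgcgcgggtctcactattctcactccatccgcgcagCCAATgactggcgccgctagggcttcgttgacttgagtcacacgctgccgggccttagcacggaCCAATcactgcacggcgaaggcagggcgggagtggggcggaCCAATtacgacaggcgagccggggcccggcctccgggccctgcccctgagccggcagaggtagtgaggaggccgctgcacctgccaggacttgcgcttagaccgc
Insig1 (chr5:28071162-28071461, plus strand): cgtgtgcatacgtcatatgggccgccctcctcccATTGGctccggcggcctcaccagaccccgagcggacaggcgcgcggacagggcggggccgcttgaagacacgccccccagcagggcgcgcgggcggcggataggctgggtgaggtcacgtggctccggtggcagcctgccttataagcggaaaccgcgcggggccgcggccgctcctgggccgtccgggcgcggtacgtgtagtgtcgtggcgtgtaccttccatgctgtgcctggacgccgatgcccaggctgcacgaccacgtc
Tm7sf2 (chr19:6067801-6068100, minus strand): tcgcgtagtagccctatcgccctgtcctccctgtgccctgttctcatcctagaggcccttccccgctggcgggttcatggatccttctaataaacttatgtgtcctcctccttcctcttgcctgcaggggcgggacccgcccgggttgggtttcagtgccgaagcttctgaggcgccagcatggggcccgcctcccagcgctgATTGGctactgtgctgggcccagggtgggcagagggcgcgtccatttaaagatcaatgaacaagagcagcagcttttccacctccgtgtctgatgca

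CCAAT boxes bind NF-Y, a factor known to act beside SREBP in sterol gene promoters. The Hmgcs1 window held 4 of them, that of Msmo1 held 3, that of Idi1 held 2, and those of Insig1 and Tm7sf2 held 1 each. Of the 26 listed genes with a RefSeq promoter, 21 (80.8%) held CCAAT on either strand, among them 14 of 15 enzymes (93.3%), compared with 42.5% of the 11517 tested genes that had a promoter. The GC box GGGCGG was found in 84.6% of the listed promoters and 66.5% of those of tested genes, and the E-box CACGTG in 23.1% and 11.3%. TCACNCCAC was found in 1 of 26, that of Hmgcs1, and in 1.44% of the promoters of tested genes. The LXR element (AGGTCA repeated after a gap of 4 bases) was in no window of this length of the 26 listed or the 11517 tested genes. Both strands were searched, and a base could belong to more than one motif. The shares are of genes, and a gene with more than one promoter counted if any of them held the motif. Numbers of promoters per gene were not compared between the list and the tested genes. The median GC content was 62.4% in the listed promoters and 60.7% in those of tested genes. Such matches describe the letters of the window and are not evidence of binding.

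The 24 libraries held 14.97 M to 20.12 M reads each. Genes of hippocampal principal cells were present in every library, with Prox1, a dentate granule cell gene, at 725 to 1562 normalized counts and Wfs1, a CA1 gene, at 1698 to 4307. All 17 microglial markers were called lower on the PLX diet in both treatment arms, with median log2 fold changes of -2.54 (sham) and -2.47 (ECT). Their summed level was 9124 to 12798 normalized counts over the control diet libraries and 1907 to 3407 over the PLX libraries, so part of the microglial signal was still there. Choroid plexus markers, from a tissue that lies within the ventricles, had a summed level of 4964 to 116061 over the 24 libraries. The summed level of thalamus markers ran from 1966 to 13091.5, both ends in the control diet ECT group. In library 17, of the PLX sham group, Rn45s, which encodes the ribosomal RNA precursor, took 2.90% of reads, where the range of the other libraries was 0.598% to 1.005%.

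Per kilobase of exon, Cyp46a1, the neuronal cholesterol hydroxylase, had the highest mean level of the 32 genes, at 874 normalized counts per kilobase over the 24 libraries. Hmgcs1, which makes HMG-CoA on the way to mevalonate, followed at 634, and Srebf2, the SREBP gene most closely tied to cholesterol synthesis, at 513. Lcat, the plasma enzyme that esterifies cholesterol on lipoproteins, stood at 420.2 and Fdft1, squalene synthase, at 329.8 counts per kilobase. The lowest levels were those of Stard4, a cytosolic sterol carrier, at 19.7, Nr1h3 (LXR alpha) at 20.2 and Soat1, which esterifies cholesterol for storage, at 29.7. Nr1h2 (LXR beta) stood at 259 counts per kilobase, well above Nr1h3. Exon lengths were those of GENCODE M21, since no source used here names the annotation behind the counts.

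No gene of the list rose or fell past the threshold (adjusted p below 0.05 over 15225 tested genes) with stress, with ECT on either diet, or with the PLX diet in either treatment arm. The number of genes called was 0 of 32 in each of these 5 comparisons by limma, and also by edgeR, DESeq2 and limma-voom on recovered reads. Over all tested genes limma called 0% for stress, 0.00657% and 0% for ECT on the control and PLX diets, and 1.86% and 2.3% for the PLX diet in sham and ECT mice. The corresponding shares were 1.85% and 2.25% by edgeR, 2.1% and 2.65% by DESeq2, and 1.88% and 2.27% by limma-voom for the PLX diet. For ECT on the control diet they were 0.00657%, 0.0836% and 0.0131%, and for stress DESeq2 called 0.00657%. A test of any difference among the 5 groups also called 0 of the 32, against 2.4% of all tested genes, and its smallest adjusted p was 0.35, for Npc2. At an unadjusted limma p below 0.05 the list held 1 gene for stress (background 6.5%), 1 for ECT on the control diet (6.88%), 2 for ECT on the PLX diet (2.55%), 5 for PLX in sham mice (9.48%) and 0 for PLX in ECT mice (11.4%). A p that misses the threshold does not show equal levels. The 95% intervals bound the differences: over all 32 genes they reached from -0.49 to 0.51 for stress, -0.34 to 0.37 for ECT on the control diet, -0.53 to 0.47 for ECT on the PLX diet, -0.40 to 0.60 for PLX in sham mice and -0.37 to 0.42 for PLX in ECT mice, all as log2 fold changes. The widest of these belonged to Stard4 and Nr1h3, the genes with the fewest reads.

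**Figure D1:**
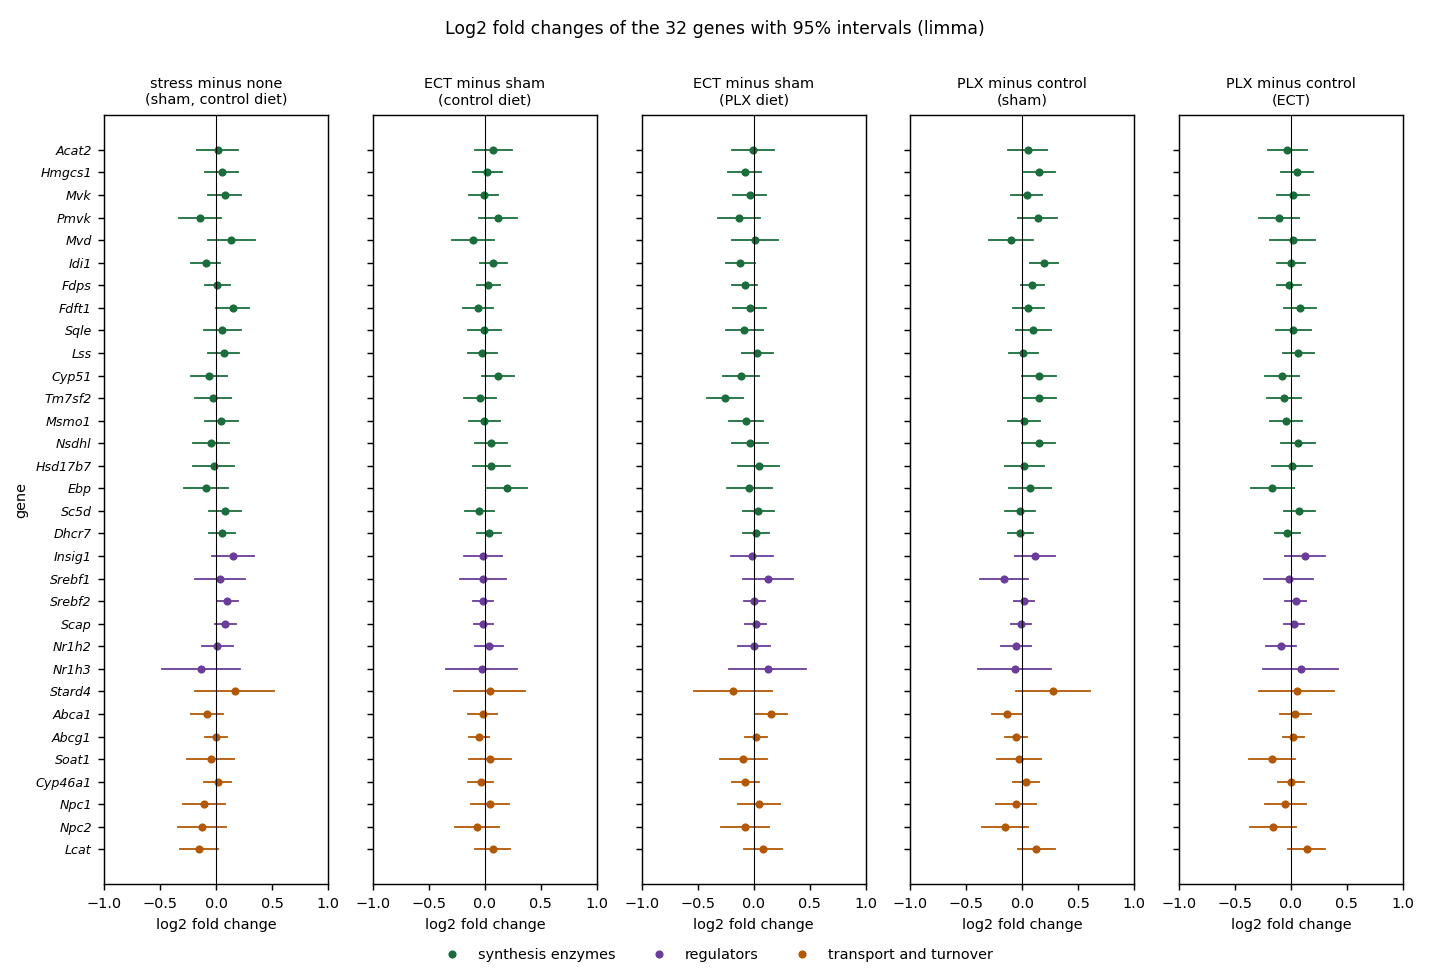
Log2 fold changes (x axis, points) with 95% intervals (lines) from limma for the 32 genes (rows, coloured by role) in 5 comparisons (panels). No gene was called in any panel, and the intervals over all panels lie between -0.53 and 0.60.

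Enzymes of synthesis tended to stand slightly higher in PLX than in control diet libraries after sham treatment, without a call. Of the 18 enzymes 15 (83.3%) had a positive log2 fold change there, against 50.4% of all tested genes. The median of the enzymes was 0.06, while the median over all tested genes was 0.00098. The enzymes were correlated with one another, so they are not 18 separate observations. The 4 enzymes with an unadjusted limma p below 0.05 were Idi1, Hmgcs1, Tm7sf2 and Cyp51, all 4 higher. They made up 22.2% of the enzymes, against 9.48% of all tested genes with such a p. Library 18, of the PLX sham group, held the highest value of 9 of the 18 enzymes over all libraries. Without it 12 of 18 were positive, the median was 0.035 and Idi1 alone had an unadjusted p below 0.05. Idi1 was also alone without library 7, of the control diet sham group, and 2 enzymes were below 0.05 without library 10, 11 or 20 in turn. Choroid plexus and meningeal markers were higher in the same comparison, with median log2 fold changes of 1.44 (0 of 11 called) and 0.67 (0 of 8 called). Their summed levels were 5226 to 74035 and 1128 to 3513 normalized counts over control diet sham libraries and 5357 to 91146 and 1166 to 4652 over PLX sham libraries. With choroid plexus and thalamus marker levels as covariates the enzymes' median was 0.10, with 15 of 18 positive, and the part of the meningeal markers was not tested. In ECT-treated mice the same diet comparison had 9 of 18 positive and a median of 0.0034, against 0.0027 over all tested genes.

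Idi1, isopentenyl-diphosphate isomerase, which converts the building blocks of farnesyl diphosphate into one another, had the smallest p of the list for PLX in sham mice. The control diet sham libraries had 697, 699.8, 724, 743 and 756 normalized counts, and the PLX sham libraries 770.4, 801, 803, 863 and 908. All 5 PLX values were above all 5 control diet values. The means were 724 ± 25.9 (SD, n = 5) and 829 ± 55.3 (SD, n = 5), a log2 fold change of 0.19 (SE 0.06, 95% interval 0.07 to 0.32, limma adjusted p = 0.138). Idi1 was the only listed gene whose sham groups did not overlap, and 0.841% of tested genes lay entirely higher on PLX in this way and 2.51% entirely lower. The nonstressed libraries had 710.1, 736, 774 and 886, and so spanned both groups.

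After ECT the Idi1 difference was not seen. Control diet ECT libraries had 715 at the lowest, 768 at the median and 814 at the highest of 6 libraries, and PLX ECT libraries 688, 738, 794 and 833. The 2 groups overlapped throughout, and the diet effect was -0.0025 (SE 0.061, limma adjusted p = 0.994) on the log2 scale. The difference between the ECT effects on the 2 diets was a log2 fold change of -0.20 (SE 0.085, 95% interval -0.37 to -0.02, limma adjusted p = 0.693).

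Hmgcs1 had 2553, 2793, 2805, 2969.8 and 3005 normalized counts in control diet sham libraries and 2829, 2979, 3169, 3189 and 3557 in PLX sham libraries. The highest PLX library stood well above the rest, and the 2 groups overlapped between 2829 and 3005. The means of 2825 ± 179.6 (SD, n = 5) and 3145 ± 274 (SD, n = 5) gave a log2 fold change of 0.15 (SE 0.067, 95% interval 0.015 to 0.29, limma adjusted p = 0.441). In ECT mice the control diet libraries had 2750.0 at the lowest, 2863 at the median and 2985 at the highest of 6 libraries, and PLX libraries 2460.4, 3085, 3162 and 3239. Of these 4 PLX libraries 3 lay above every control diet ECT library and the other, library 12, held the lowest Hmgcs1 value of all 24. With both treatments pooled, the PLX effect on Hmgcs1 was 0.10 (SE 0.048, limma adjusted p = 0.368). Without library 12 it was 0.15 with a limma adjusted p of 0.0479, where 2.83% of all tested genes were called. This was the only call of a listed gene under any setting tried. Over the settings the adjusted p of this effect ran up to 0.604. Its unadjusted limma p was 0.05 or more without library 1, 3, 4, 7, 10, 11, 13, 14, 15, 18, 19 or 20 in turn. It stayed below 0.05 without any other single library. Lcat and Npc2 had the smallest p of the list in this comparison, and Hmgcs1 was added to the genes followed over the settings.

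Tm7sf2, a sterol reductase that acts after the lanosterol demethylase, had the smallest p of the list for ECT on the PLX diet. PLX sham libraries had 216, 232, 247, 262 and 264 normalized counts and PLX ECT libraries 177, 193, 222 and 227. The groups overlapped between 216 and 227, with 4 of 5 sham libraries above every ECT library. The means of 244 ± 20.2 (SD, n = 5) and 205 ± 23.5 (SD, n = 4) gave a log2 fold change of -0.26 (SE 0.077, 95% interval -0.41 to -0.10, limma adjusted p = 0.999). On the control diet the values were 202, 213, 221, 229 and 232 after sham and 202 at the lowest, 213 at the median and 229 at the highest of 6 libraries after ECT, a log2 fold change of -0.044 (SE 0.069, limma adjusted p = 0.956). Pooled over both diets, ECT gave -0.15 (SE 0.052, limma adjusted p = 1) on the log2 scale. Choroid plexus markers differed in the same direction between the 2 PLX groups (median log2 fold change -1.40, 0 of 11 called). With choroid plexus and thalamus marker levels as covariates the Tm7sf2 estimate was -0.32. Tm7sf2 shares 532 of its exon bases with Vps51 on the same strand in GENCODE M21, so part of its count may belong to either gene.

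Ebp, the sterol isomerase, had the smallest p for ECT on the control diet, and its direction differed between the diets without a call. Sham libraries had 229, 241, 249, 278 and 291 normalized counts and ECT libraries 254 at the lowest, 294 at the median and 340.5 at the highest of 6 libraries. The highest sham library stood near the ECT median. The means were 258 ± 26.3 (SD, n = 5) and 295 ± 29.1 (SD, n = 6), a log2 fold change of 0.19 (SE 0.087, 95% interval 0.014 to 0.37, limma adjusted p = 0.672). PLX sham libraries had 228, 247, 270.0, 297 and 309.5 and PLX ECT libraries 239, 245, 275 and 291, overlapping throughout. Ebp also had the smallest p for PLX in ECT mice, where the diet effect was -0.17 (SE 0.093, limma adjusted p = 0.537).

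Cyp51, the lanosterol demethylase, was the second gene by p for ECT on the control diet. Its values were 797, 812, 828, 839.7 and 881 after sham and 822 at the lowest, 899.7 at the median and 990.5 at the highest of 6 libraries after ECT. Of the 6 ECT libraries 5 lay above every sham library, and the remaining one stood at 822. The log2 fold change was 0.12 (SE 0.07, limma adjusted p = 0.794). On the PLX diet the order of the means was the opposite, 927 ± 106 (SD, n = 5) after sham and 857 ± 85 (SD, n = 4) after ECT. The PLX sham libraries had 824, 863, 878, 987 and 1082, and the PLX ECT libraries 783, 785, 927 and 935. The difference between the 2 ECT effects was a log2 fold change of -0.23 (SE 0.10, 95% interval -0.44 to -0.014, limma adjusted p = 0.72).

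Fdft1, squalene synthase, was the listed gene whose stressed sham and nonstressed groups did not overlap. Nonstressed libraries had 1242, 1273, 1278 and 1315 normalized counts and stressed sham libraries 1338, 1359, 1420.5, 1446 and 1510.0. Every stressed sham library was above every nonstressed one, a pattern that 1.43% of tested genes had in this direction and 1.17% in the other. The means of 1277 ± 29.9 (SD, n = 4) and 1415 ± 69.1 (SD, n = 5) gave a log2 fold change of 0.15 (SE 0.072, 95% interval -0.0027 to 0.29, limma adjusted p = 0.759). Choroid plexus markers were lower in stressed sham than in nonstressed libraries (median log2 fold change -1.52, 0 of 11 called). Between libraries of a group, Fdft1 ran against these markers at r = -0.558 (adjusted p = 0.0959 by permutation of libraries within groups). With choroid plexus and thalamus marker levels as covariates the Fdft1 estimate for stress was 0.085 (limma adjusted p = 1). The other stressed groups reached into the nonstressed range: ECT libraries on the control diet had 1170.1 at the lowest, 1355 at the median and 1509 at the highest of 6 libraries, and PLX libraries 1312, 1387, 1469.9, 1517 and 1679 after sham and 1243, 1474, 1500.0 and 1537 after ECT. Fdft1 shares 774 exon bases with Ctsb, a lysosomal protease gene on the opposite strand, and without a stated strand setting their reads cannot be told apart there. The same holds for 557 exon bases (12.1%) of Hmgcs1 shared with the antisense gene Gm48342 and 323 (9.21%) of Idi1 shared with Gm48574.

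The other enzymes were called in no comparison. Nsdhl had the next smallest p among enzymes for PLX in sham mice, with 335, 362, 381, 392 and 399.9 normalized counts in control diet sham libraries and 383, 408, 413, 415 and 450.2 in PLX sham libraries. The groups overlapped, and the log2 fold change was 0.15 (SE 0.073, limma adjusted p = 0.55). Pmvk had the most negative interaction of the enzymes, a log2 fold change of -0.25 (SE 0.12, limma adjusted p = 0.734), from 0.12 for ECT on the control diet and -0.13 on the PLX diet. Early in the pathway, Acat2, which condenses acetyl-CoA, ranged from 212 to 286 normalized counts over the 24 libraries. The kinases and decarboxylase that turn mevalonate into isopentenyl diphosphate had 263 to 339 (Mvk), 302 to 446 (Pmvk) and 209.8 to 297 (Mvd). Acat2 has a close relative, Acat3, and reads that fit both cannot be assigned with certainty. Fdps, farnesyl diphosphate synthase, had 732 to 972, Sqle 777 to 1096, and Lss, which closes the sterol rings, 437 to 569. Fdps shares 1124 exon bases with a predicted gene on its own strand, Gm43738. Late in the pathway, Msmo1 and Nsdhl, which remove methyl groups, had 973 to 1411 and 335 to 472, and the reductase Hsd17b7 had 271 to 376. The desaturase Sc5d had 578 to 757 and Dhcr7, a final reductase, 571 to 745. None of these genes had groups that did not overlap in any of the 5 comparisons. For stress, the 18 enzymes ranged from -0.15 to 0.15 in log2 fold change, 11 of them positive, and for ECT on the control diet from -0.11 to 0.19, 10 of them positive. With choroid plexus and thalamus marker levels as covariates 7 of the 18 were positive for stress, with a median of -0.013. For ECT on the PLX diet, in the main fit, the 18 enzymes ranged from -0.26 to 0.04. There 5 were positive and the median was -0.04, where the median over all tested genes was 0.0016. That direction rested on single libraries: without library 12, of the PLX ECT group, 11 of 18 were positive with a median of 0.016, and without library 18 it was 9 of 18 and -0.00025. The ECT effect was lower on the PLX diet than on the control diet for 14 of the 18 (77.8%) and for 49.7% of all tested genes. Without library 12 it was lower for 10 of 18, and the enzymes were correlated with one another. The interaction called 0 of the 32 listed genes and 0% of all tested genes by limma. At an unadjusted p below 0.05 it held 2 of the 32, Idi1 and Cyp51, where the background was 6.85%, and 0 to 5 enzymes with single libraries left out. The comparisons on one diet share libraries with those across diets, so these counts are not separate observations.

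**Figure D2:**
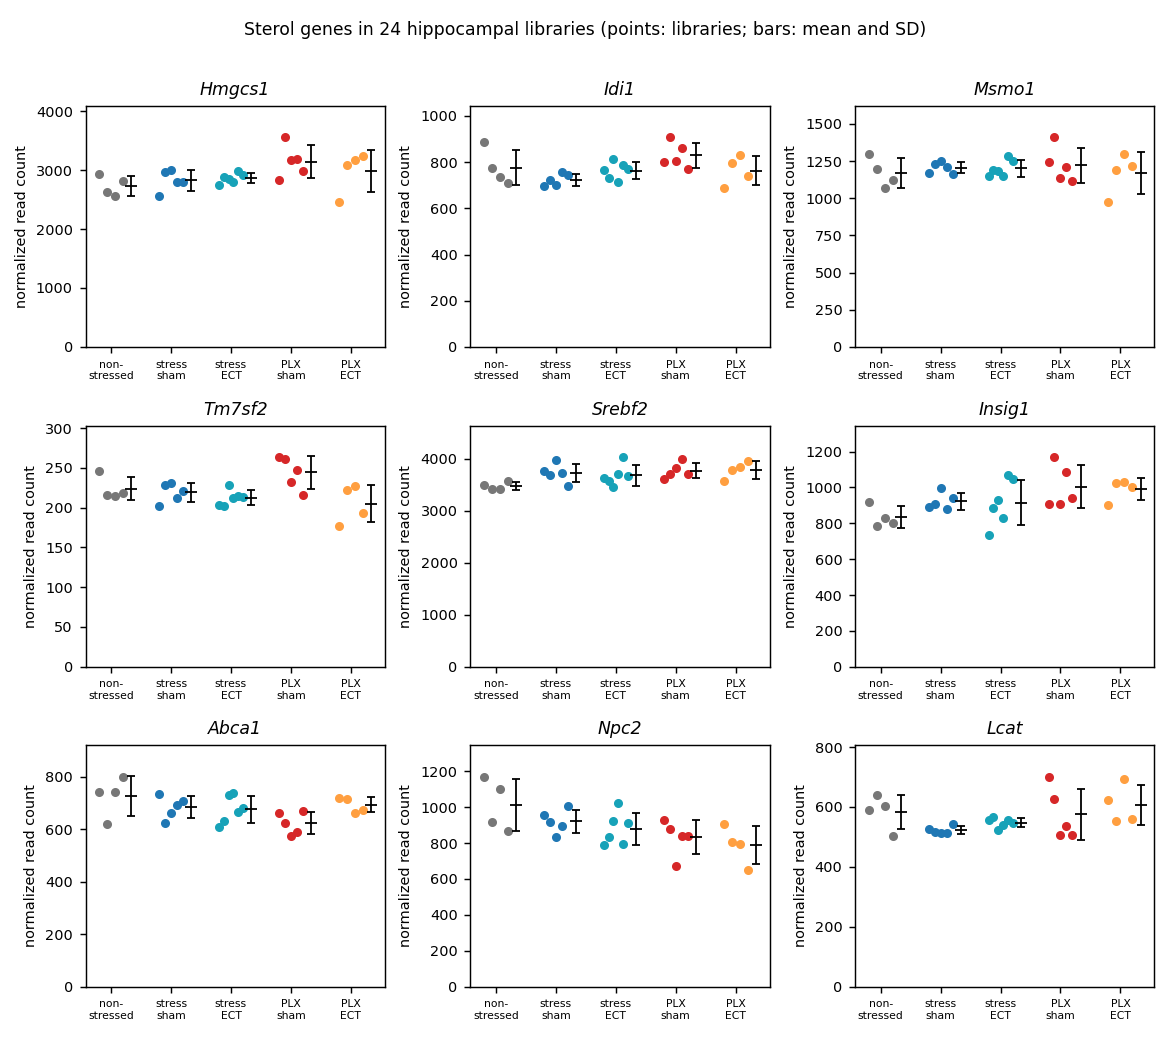
Normalized read counts (y axis) of 9 sterol genes in each library (points) of the 5 groups (x axis; the 4 groups other than nonstressed were all stressed), with the mean and SD beside them. In the Idi1 panel all 5 PLX sham libraries lie above all 5 control diet sham libraries, and in the Npc2 panel the group means decrease from 1013 to 789.

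Among the regulators, Srebf2 had the smallest p for stress. Nonstressed libraries had 3412, 3415, 3496 and 3563 normalized counts and stressed sham libraries 3470.1, 3684, 3728, 3763 and 3966. One stressed library lay within the nonstressed range and the other 4 above it. The means were 3471 ± 72.3 (SD, n = 4) and 3722 ± 178 (SD, n = 5), a log2 fold change of 0.10 (SE 0.046, 95% interval 0.0053 to 0.19, limma adjusted p = 0.759). Choroid plexus markers were lower in the same comparison (median log2 fold change -1.52, 0 of 11 called). Between libraries of a group, Srebf2 ran against them at r = -0.546 (adjusted p = 0.111 by permutation of libraries within groups). Over all alternative settings, marker covariates among them, the Srebf2 estimate for stress was 0.076 to 0.12. Insig1, itself an SREBP target whose protein retains SREBP, had 784, 799, 830.5 and 919.9 in nonstressed and 879, 892, 905, 941 and 995 in stressed sham libraries, overlapping between 879 and 919.9, and a log2 fold change of 0.15 (SE 0.091, limma adjusted p = 0.805). Its means on the PLX diet were 1003 ± 119 (SD, n = 5) after sham and 991 ± 61.8 (SD, n = 4) after ECT, with a pooled PLX effect of 0.12 (SE 0.061, limma adjusted p = 0.442).

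Srebf1, which drives fatty acid more than sterol synthesis in liver, had a lower mean in PLX sham libraries, 1282 ± 112 (SD, n = 5), than in control diet sham libraries, 1439 ± 152 (SD, n = 5), within the spread of both groups (log2 fold change -0.16 (SE 0.10, limma adjusted p = 0.663)). Scap, the escort of SREBP, had the lowest coefficient of variation of the 32 (4.47%), at 1797 to 2129 normalized counts over the 24 libraries. Nr1h2 ranged from 771 to 1036. Nr1h3 had 35.4 to 66.4 normalized counts, and none of its 5 pairwise comparisons had an interval that excluded 0. In none of the 5 comparisons was the median log2 fold change of the 6 regulators further from 0 than 0.06.

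None of the 8 genes of transport and turnover was called in any comparison, and their estimates had both signs. Abca1, which loads cholesterol onto lipoprotein particles, had 573, 589, 622, 659 and 667 normalized counts in PLX sham libraries and 662, 673, 715 and 717 in PLX ECT libraries. The ECT libraries lay in the upper part of the sham range or above it. The means of 622 ± 41.6 (SD, n = 5) and 692 ± 28.5 (SD, n = 4) gave a log2 fold change of 0.15 (SE 0.07, 95% interval 0.011 to 0.30, limma adjusted p = 0.999). Control diet sham libraries had 625, 663, 694, 706 and 732, and PLX in sham mice gave -0.14 (SE 0.066, limma adjusted p = 0.519). Abcg1, its partner in export, ranged from 1267 to 1517 over all libraries.

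Lcat was the first gene by p for the PLX diet pooled over treatments. Control diet libraries had 511, 514, 517, 527 and 543 normalized counts after sham and 522 at the lowest, 551 at the median and 565 at the highest of 6 libraries after ECT. PLX libraries had 505, 506, 538, 626 and 701 after sham and 552, 559, 622 and 693 after ECT. The PLX groups were the more variable, and 4 of their 9 libraries, with 622 to 701, lay above every stressed control diet library. The highest, 701, was library 17, in which Rn45s took 2.90% of reads. The pooled effect was a log2 fold change of 0.13 (SE 0.056, 95% interval 0.019 to 0.25, limma adjusted p = 0.289), and that in ECT mice alone 0.14 (SE 0.08, limma adjusted p = 0.537). The latter was 0.076 without library 14, of the PLX ECT group. Nonstressed libraries, on the control diet, had 504, 589, 604 and 639 and so reached into the same range.

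Npc2, a soluble protein that hands cholesterol to Npc1 for release from lysosomes, was lower on PLX without a call. Nonstressed libraries had 865, 916, 1102 and 1169.9 normalized counts. Stressed control diet libraries had 836, 894, 918, 956 and 1008 after sham and 790.0 at the lowest, 873 at the median and 1022 at the highest of 6 libraries after ECT. PLX libraries had 674, 839, 841, 879 and 929 after sham and 651, 793, 805 and 906 after ECT. Each PLX group overlapped its control diet group, and 1 library of each lay below every control diet library. The pooled PLX effect was a log2 fold change of -0.16 (SE 0.07, 95% interval -0.30 to -0.014, limma adjusted p = 0.329). Microglial markers fell in the same comparison with a median log2 fold change of -2.58, and their part in the Npc2 difference was not tested. In bulk tissue, fewer cells of a type and less RNA per cell cannot be told apart.

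Npc1, the lysosomal membrane transporter, had group means of 1542 to 1726 normalized counts, and Cyp46a1 of 2812 to 2962. Soat1 ranged from 240 to 348 over the 24 libraries. Stard4 had the largest spread, with a highest library 2.01 times its lowest. Its mean was 105 ± 11.5 (SD, n = 5) in control diet sham and 128 ± 21.2 (SD, n = 5) in PLX sham libraries, a log2 fold change of 0.27 (SE 0.16, limma adjusted p = 0.636).

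Pooled over treatments, the PLX diet called 0 of the 32 genes by limma against 3.05% of all tested genes (0 also by edgeR, DESeq2 and limma-voom, against 3.04%, 3.66% and 3.08%), and at an unadjusted p below 0.05 it held 4, Lcat, Npc2, Idi1 and Hmgcs1, where the background was 12.5%. Pooled over diets, ECT called 0 of the 32 and 0% of all tested genes, and 1 of the 32, Tm7sf2, had an unadjusted p below 0.05, where the background was 2.49%. Of 48 further genes of sterol and lipid handling, 47 passed the filter and limma called none in any of the 8 comparisons. At an unadjusted p below 0.05 they numbered 5 for stress, 5 for ECT on the control diet, 1 for ECT on the PLX diet, 2 for PLX in sham mice, 2 for PLX in ECT mice, 4 for PLX pooled, 2 for ECT pooled and 4 for the interaction. As shares of the 47 these were 10.6%, 10.6%, 2.13%, 4.26%, 4.26%, 8.51%, 4.26% and 8.51%, where the shares over all tested genes, in the same order, were 6.5%, 6.88%, 2.55%, 9.48%, 11.4%, 12.5%, 2.49% and 6.85%. Their median log2 fold changes in the 8 comparisons were between -0.02 and 0.01.

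The listed genes had a median variation between libraries close to that of tested genes within the same wide range of means, which were not matched to them by level. The coefficient of variation of the listed genes over the 24 libraries had a median of 8.60%, from 4.47% for Scap to 19.1% for Stard4. The median was 9.85% over all tested genes and 8.51% over the 11580 tested genes whose means lie in the range of the list. The extremes were unevenly spread: library 18, of the PLX sham group, held the highest value of 9 of the 18 enzymes, and library 12, of the PLX ECT group, the lowest value of 8.

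The enzymes shared these deviations. When each gene was expressed as its log2 deviation from its group mean, the 153 pairs of enzymes had a median Pearson r of 0.372 over the 24 libraries, and 138 pairs were positive. An r of at least 0.5 was found for 33.3% of enzyme pairs and 4.55% of all pairs of tested genes, whose median was -0.0021. Enzymes with transport genes had a median of 0.04, with 6.25% at 0.5 or more. These pairs share libraries and depth, and the values are a description. The enzyme most like the rest was Sqle, squalene epoxidase, with a median r of 0.562 with the other 17, followed by Msmo1 at 0.547 and Fdft1 at 0.523. Ebp, at 0.07, and Pmvk, at 0.14, were the least alike. Insig1 was positively correlated with 18 of 18 enzymes, with a median r of 0.499, and Stard4 with 17 of 18. Srebf2 had a median r of 0.345, Srebf1 of 0.02, and Abcg1 of -0.23.

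Msmo1, methylsterol monooxygenase, was chosen after these values were seen, as the enzyme correlated positively with all 17 others at the highest median. The ranks and p-values of other enzymes against Msmo1 come from the same deviations as that choice. They describe the pattern and do not test it. Of all 15224 other tested genes, Hmgcs1 and Fdft1 were the 2 most like it in within-group deviations, with r of 0.791 and 0.787. Idi1 ranked 5 (0.757), Tm7sf2 6 (0.753), Sqle 11 (0.731) and Fdps, farnesyl diphosphate synthase, 13 (0.715). Among the 30 genes most like Msmo1, 10 were of the list: Cyp51, Mvd, Insig1 and Stard4 besides these 6. The list, with Msmo1 itself, makes up 32 of the 15225 tested genes. Spearman's rho was 0.768 for Hmgcs1 (raw permutation p = 0.00047) and 0.805 for Fdft1 (4e-05). In a two-sided permutation test within groups the raw p for r was 0.00147 for Hmgcs1 and 4e-05 for Fdft1. After Benjamini-Hochberg adjustment over 15224 genes the permutation p for r was 0.913 and 0.609, and 0 genes passed, where 743 (4.88%) had an unadjusted p below 0.05. Without the 2 libraries farthest from the Msmo1 median, r fell to 0.616 and 0.662.

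**Figure D3:**
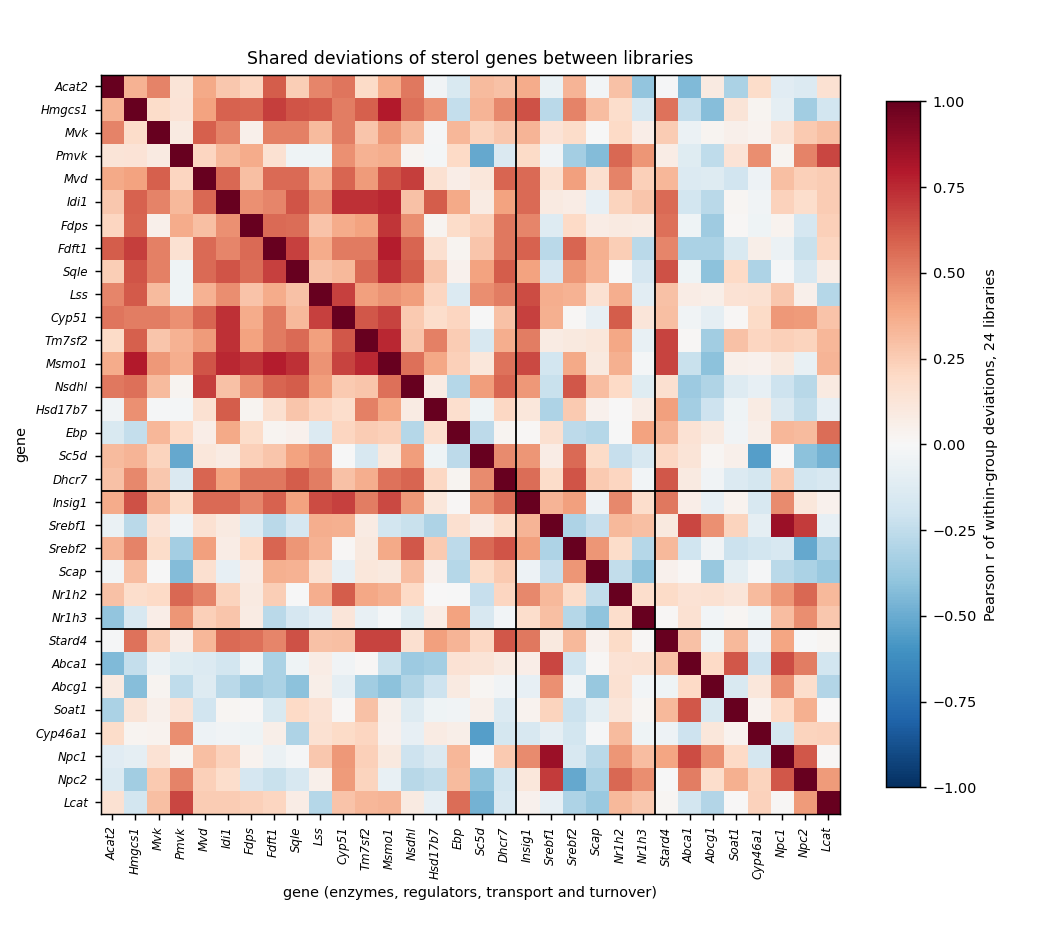
Pearson r (colour, -1 to 1) between the within-group log2 deviations of each pair of the 32 genes over 24 libraries, ordered as enzymes, regulators and transport genes (black lines divide them). The enzyme block is mostly positive (138 of 153 pairs, median 0.372), and Srebf1 and Npc1 form the strongest pair at 0.858.

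Npc1, Npc2 and Srebf1 varied with markers of cell types, and the other 6 transport genes did not pass the test against oligodendrocyte or astrocyte markers. The division is not sharp. Against oligodendrocyte markers 4 of the 8 transport genes had an unadjusted permutation p below 0.05, where the background was 19.8%. They included Abcg1 (r = 0.531, permutation adjusted p = 0.113) and Abca1 (r = 0.486, 0.187). Among the regulators, Nr1h2 had r = 0.624 with astrocyte markers (permutation adjusted p = 0.0553). Npc1 was correlated with the mean of 14 mature oligodendrocyte markers at r = 0.919 and rho = 0.897 over the 24 libraries (two-sided permutation p = 1e-05 for each, the smallest these permutations can give, adjusted p = 0.000963 for r and 0.00109 for rho). It ranked 73 among 15211 tested genes, of which 4.41% passed the adjusted threshold for r. Without the 2 libraries farthest from the median of the markers r was 0.874. The marker list's summed level ran from 82071 to 206612 normalized counts over the libraries, and its median log2 fold change was -0.19 for stress and -0.16 for PLX in sham mice (0 of 14 called in each). Srebf1 followed the same markers at r = 0.725 and rho = 0.691 (permutation adjusted p = 0.0249 and 0.0487, 0.609 for r without the 2 farthest libraries). Srebf1 and Npc1 followed each other at r = 0.858 and rho = 0.843 (permutation adjusted p = 0.00113 and 0.0019, 0.815 for r without the 2 libraries farthest from the Npc1 median). This r was the highest of the 496 pairs of listed genes. The adjustment covers the 15224 genes tested against Npc1 and not the choice of this pair. The 30 genes most like Npc1 included none of the other listed genes.

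Npc2 was correlated with the mean of 11 astrocyte markers at r = 0.828 and rho = 0.876 over 24 libraries, ranking 16 of 15214 tested genes (permutation adjusted p = 0.0172 and 0.0138, 0.849 for r without the 2 farthest libraries). By the threshold for r, 5.13% of tested genes passed. Of the 18 enzymes none passed against either list, and 1 had an unadjusted permutation p below 0.05 against each. These were Cyp51 with oligodendrocyte markers (r = 0.456, rho = 0.469, adjusted p = 0.23 and 0.231) and Pmvk with astrocyte markers (r = 0.519, rho = 0.519, adjusted p = 0.2 and 0.158). Over the 18 enzymes r ran from -0.11 to 0.456 with oligodendrocyte and from -0.25 to 0.519 with astrocyte markers. Against the mean of the 17 microglial markers 0 of 15208 genes passed this permutation test within groups, and 915 (6.02%) had an unadjusted p below 0.05.

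**Figure D4:**
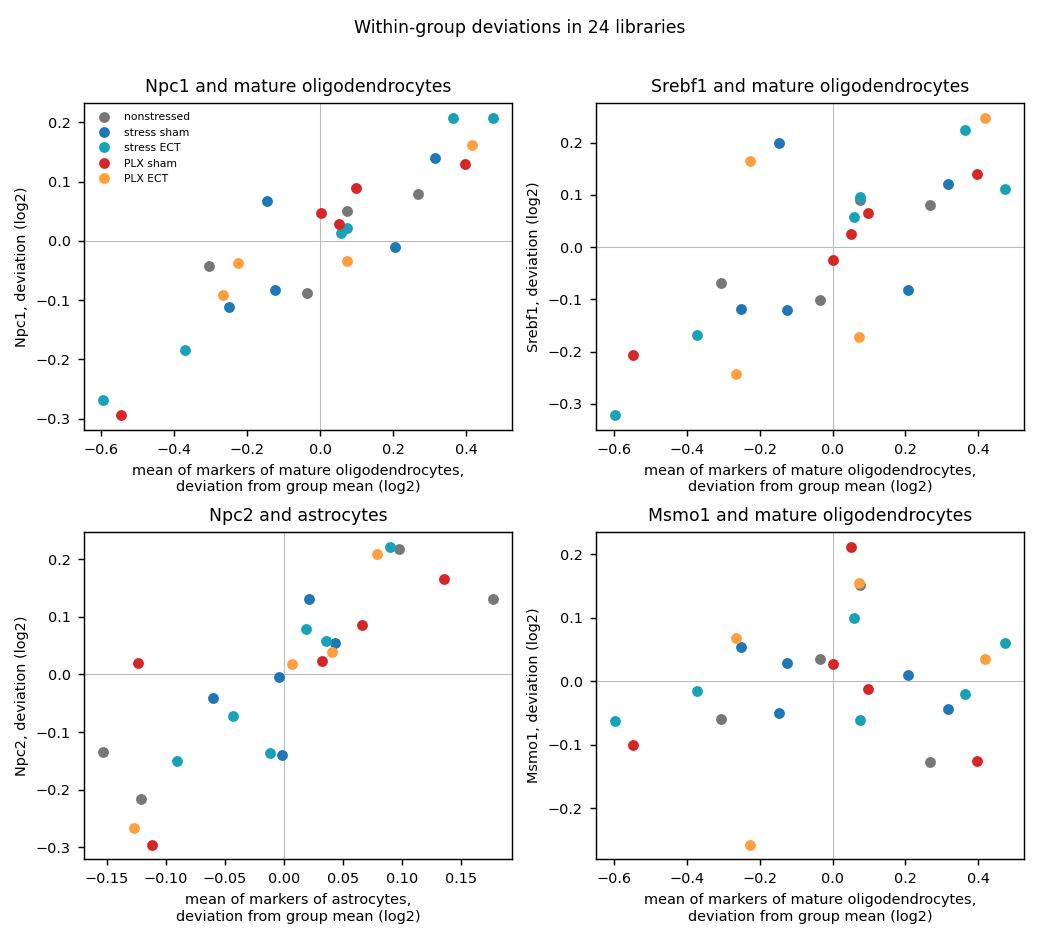
Within-group log2 deviations of Npc1, Srebf1, Npc2 and Msmo1 (y axes) against the mean deviation of cell type markers (x axes) in 24 libraries, coloured by group. Over the libraries of all 5 groups together, Npc1 follows the oligodendrocyte markers closely (r = 0.919) and Msmo1 does not (r = 0.17). In the control diet sham group, libraries 10 and 11 have Npc1 and marker deviations of opposite sign.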

How the data were processed

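Poly(A) RNA-seq libraries of mouse hippocampus were compared in 5 groups taken from their labels. The deposited table holds 1 signal column per library, normalized counts per the file headers, scaled by a size factor of each library (0.917 to 1.205). The submitters' processing notes name DESeq2 1.6.3, HTSeq 0.6.1p1, TopHat2 2.0.10 and cutadapt, and list mm10 and hg19 as builds, giving neither a role. No source used here gives annotation or strand. Whole reads were recovered for 100% of values (tolerance 0.001 reads).

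Log2(value + 1) was fitted with limma 3.58.1 (R 4.3.3, trend and robust), with 5 group means over all 24 libraries and Benjamini-Hochberg adjustment over 15225 genes, a script tested on simulated data. Fold changes on this scale understate those of low genes. Precision is limited by the number of libraries. Alternatives used the recovered reads with edgeR 4.0.16, DESeq2 1.42.0 and limma-voom, other filters and pseudocounts, marker covariates, the title letter (consensus correlation 0.192), and leaving out each library. For the 2 genes with the smallest p in each comparison of 2 groups, values were given for each library of those groups. The exception was the control diet ECT group of 6 libraries, given by its lowest, median and highest value. Correlations used within-group deviations and 100000 permutations of libraries within groups against each of 7 measures. The genes and lists were chosen with earlier results of these data known.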

Additional observations from a re-analysis of the deposited data

Results flagged for a closer look

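Single libraries stood far from the rest of their group for 5 of 160 combinations of gene and group, where chance flags about 1 in 20, here 8 on average. Tm7sf2 had 246 normalized counts in library 22, the highest of the nonstressed group, where the others had 215 to 218. Sc5d, the sterol desaturase, had 584 in library 8 of the control diet sham group, where the others had 675 to 701, and 578 in library 17 of the PLX sham group, where the others had 677 to 683. Soat1 had 239.9 in library 23 of the nonstressed group, below the 318 to 327 of the others. Npc1 had 1251 in library 19 of the PLX sham group, where the others had 1565 to 1678. The 5 fell in 5 different libraries.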

How the results depend on the processing

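The count of listed genes called was 0 in 304 of 305 combinations of comparison and setting. The exception was the PLX diet pooled over treatments without library 12, of the PLX ECT group, where 1 gene, Hmgcs1, passed (adjusted p = 0.0479). Leaving out each library gave a count of 0 to 1 for that comparison and 0 for the others. Over all settings the smallest adjusted p was 0.0719 for PLX in sham mice and 0.135 for the test among the 5 groups. Of 578 alternative log2 fold changes 577 kept their direction and side of the threshold. Hmgcs1 was again the exception (0.10, and 0.08 to 0.15 over the alternatives, with an adjusted p of 0.0479 to 0.604). Of the 578, 2 moved by over 1.5 times: Fdft1 for stress from 0.15 to 0.085 with choroid plexus and thalamus covariates, and Lcat for PLX in ECT mice from 0.14 to 0.076 without library 14. Counts of enzymes by direction under each setting were added after seeing the data. For PLX in sham mice 12 to 16 of 18 were positive, lowest without library 18, and for ECT on the PLX diet 2 to 11, highest without library 12. The Idi1 difference for PLX in sham mice had an adjusted p of 0.0719 to 0.368. No paired analysis was possible because the groups share no replicate numbers. With 4 to 6 libraries a group, the printed intervals give the differences compatible with these data if libraries are independent. No title letter was shared between groups, and each group held 2 or 3. The letter was also fitted as a random effect. Enzymes with an unadjusted limma p below 0.05 then numbered 2 for PLX in sham mice (main fit 4). They numbered 0 for ECT on the control diet, PLX pooled and the interaction (main fit 1, 2 and 2). Counts in the remaining comparisons were unchanged.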

Other observations

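Neuronal markers varied in the opposite direction to Srebf1, Npc1 and Npc2 between libraries of a group. Against the mean of 8 neuronal markers, over 24 libraries, within-group r was -0.765 for Srebf1, -0.682 for Npc1 and -0.676 for Npc2, with permutation adjusted p of 0.00412, 0.013 and 0.014 and rho of -0.785, -0.656 and -0.716. Without the 2 farthest libraries r was -0.733, -0.545 and -0.696. Ebp was the only enzyme to pass against them, at r = -0.575 (permutation adjusted p = 0.0476, -0.40 without the 2 farthest libraries), while its rho of -0.502 had an adjusted p of 0.0973. Srebf2 had r = 0.583 (permutation adjusted p = 0.0668) and rho = 0.614 (adjusted p = 0.0313). Against these markers 17.7% of tested genes passed the threshold. Npc2 also followed the choroid plexus markers at r = 0.682 and rho = 0.666 (permutation adjusted p = 0.016 and 0.023, 0.628 for r without the 2 farthest libraries), where 8.35% of tested genes passed. Abca1 followed Npc1 at r = 0.653 (permutation adjusted p = 0.0172, 0.554 without the 2 farthest libraries) and rho = 0.598, the latter with an adjusted p of 0.0676, which misses the threshold. Npc2 followed Npc1 at r = 0.621 and rho = 0.646 (permutation adjusted p = 0.0424 and 0.0434, 0.48 for r without the 2 farthest libraries).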
